A study of Mus musculus with 51 samples.

Results

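Transcripts of 9 enzyme genes were followed through every mRNA-seq group: the testis isozyme genes Pgk2, Ldhc, Gapdhs, Pdha2 and Gk2, and the somatic paralogs Pgk1, Ldha, Gapdh and Pdha1. They were chosen by gene symbol from a table of counts for 55401 genes, in which all 9 were found. The isozyme genes are transcribed in germ cells at and after meiosis, whereas the paralogs are used by most cell types.

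Glycolysis converts glucose to pyruvate, which lactate dehydrogenase turns into lactate or the pyruvate dehydrogenase complex feeds into the mitochondrion as acetyl-CoA. Pgk1, Pdha1 and the glycerol kinase gene Gk are X-linked, and the X chromosome is silenced in male meiosis. Pgk2, Pdha2 and Gk2 are autosomal copies of them that arose by retroposition and lack introns, while Ldhc and Gapdhs are spliced genes whose enzymes serve energy metabolism in sperm.

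The study asked how loss of DMRT1, a transcription factor that keeps Sertoli cells male, turns them into granulosa-like cells, and what the R111G substitution in its DNA-binding domain does. All mice were of mixed 129Sv and C57Bl/6J strain. Whole XY gonads were taken at P28 (postnatal day 28) from Dmrt1 +/+, Dmrt1+/-, Dmrt1-/- and Dmrt1 R111G/+ mice, and at P3 from Dmrt1+/-, Dmrt1-/-, Dmrt1 R111G/+ and Dmrt1 R111G/- mice, with 3 libraries in each of the 8 groups. Sertoli cells were isolated at P7 from mice carrying CAG-Stopflox-tdTomato and Dhh-Cre, a driver active in Sertoli cells, with Dmrt1 f/f (deleted) or Dmrt1 f/+ (control), again with 3 libraries each. The control group is thus heterozygous in cells where Cre acted, although its titles read +/+, and both P7 groups carry the reporter and the driver. Those cells came from dissected, collagenase-treated tubules with 2 mice per tube. They were passed over a column with Thy1 and c-Kit antibody beads, and the flow-through was kept. For the gonads, no source used here says whether libraries came from separate animals, so p-values measure the spread between libraries, which may be partly technical.

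The 30 libraries held 5043838 to 12792811 counts, and the 12 libraries of P28 at least 8909790. Levels are given as CPM, counts scaled to a common library size with TMM factors over the 30 libraries. Dmrt1 itself was at 41.7 ± 5.39 CPM (SD, n = 3) in wild-type testes, 44.1 ± 16.1 in Dmrt1+/- testes, 63.8 ± 14.1 in Dmrt1 R111G/+ testes and 0.353 ± 0.159 in Dmrt1-/- gonads at P28. The label of the gonads was checked against 15 markers each of spermatocytes and spermatids. Replicate 3 of the Dmrt1+/- testes stood apart, with summed spermatid markers at 4920 CPM against 17400 and 22100 CPM in the other 2, so results that rest on that group are also given without it.

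The isozyme genes lie on chromosomes 17, 7, 7, 3 and 5 of GRCm38. Pgk2 (chr17:40207015-40208640), Pdha2 (chr3:141210004-141212355) and Gk2 (chr5:97455142-97457021) have 1 exon each, all on the minus strand. Ldhc (chr7:46861203-46878142, plus strand) has 8 exons and starts 5575 bases downstream of the end of Ldha (chr7:46841475-46855627) on the same strand. Gapdhs (chr7:30729775-30743681, minus strand) has 11 exons, as have the X-linked genes Pgk1 (chrX:106187100-106203699) and Pdha1 (chrX:160122209-160138413), while Gapdh (chr6:125161715-125166467) has 7. Runs of 100 bases from the mRNA occur elsewhere in the genome for 89.8% of positions in Pgk1, at 6 loci, and for 85.1% in Gapdh, at 124 loci, so the levels of these 2 genes are uncertain. The figure was 1.32% for Ldha and 0% for the other 6 genes. How the counting treated reads with several matches is not given in the sources used here.

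Because the isozymes moved together at P28, the 150 bases upstream of the RefSeq start of each are printed, with those of Ldha as the paralog that moved with them (GRCm38.p6, sense strand, 5′ to 3′). The windows are chr17:40208610-40208759 for Pgk2, chr7:46861113-46861262 for Ldhc, chr7:30743682-30743831 for Gapdhs, chr3:141212356-141212505 for Pdha2, chr5:97457024-97457173 for Gk2 and chr7:46845654-46845803 for Ldha. Capitals mark the core TGACG of the cyclic AMP response element (CRE), which CREM, an activator of spermatid genes, is known to bind, and the full element TGACGTCA where present.
Pgk2: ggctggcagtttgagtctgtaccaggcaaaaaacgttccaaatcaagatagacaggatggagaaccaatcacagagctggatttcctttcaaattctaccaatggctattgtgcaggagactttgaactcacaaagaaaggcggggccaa
Ldhc: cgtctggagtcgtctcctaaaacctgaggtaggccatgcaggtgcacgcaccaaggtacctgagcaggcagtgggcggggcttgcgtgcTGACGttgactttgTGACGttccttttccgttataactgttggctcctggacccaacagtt
Gapdhs: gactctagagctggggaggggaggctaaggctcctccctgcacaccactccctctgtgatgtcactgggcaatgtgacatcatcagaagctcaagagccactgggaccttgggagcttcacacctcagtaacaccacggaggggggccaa
Pdha2: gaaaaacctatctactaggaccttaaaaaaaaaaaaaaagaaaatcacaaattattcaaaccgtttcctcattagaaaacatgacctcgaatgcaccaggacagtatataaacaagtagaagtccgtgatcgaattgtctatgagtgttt
Gk2: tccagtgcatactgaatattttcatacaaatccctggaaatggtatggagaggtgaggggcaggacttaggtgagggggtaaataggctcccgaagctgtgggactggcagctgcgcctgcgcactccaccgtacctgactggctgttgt
Ldha: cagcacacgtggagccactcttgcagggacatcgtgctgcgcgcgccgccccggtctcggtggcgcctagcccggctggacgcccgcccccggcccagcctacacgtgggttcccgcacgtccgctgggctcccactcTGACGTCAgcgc

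The 250 bases upstream of each start were searched on both strands. RefSeq holds 12 promoters for the 9 genes, and in them the core TGACG occurred for 2 genes, Ldhc and Ldha, beside 17.8% of 32851 promoters in all. The full element TGACGTCA, which contains overlapping TGACG cores on both strands, occurred for Ldha and in 1.55% of all promoters. The GC box GGGCGG was found for Ldhc, Pgk1 and Ldha (32.7% of all promoters), the CCAAT box for Pgk2 and Pgk1 (33.8%) and the TATA box TATAAA for Pdha2 (12.4%). The letters CAACTG, a form of the MYB core (11.1% of all), and ACANTGT, the core used by DMRT1 (6.47% of all), were not matched in any of the 12. Only these exact letters were searched for each motif, and variants of them were not. These matches describe the letters of the windows and were not tested for binding.

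Wild-type testes at P28 had higher levels per kilobase of the isozymes than of the somatic paralogs other than Ldha, by the lengths used. The length counts every annotated exon, which is 4133 bases for Gapdh and 3310 for Ldha, beside mRNAs of 1420 and 1766 bases. For Pgk2, Pdha2 and Gk2 both lengths were the same. The levels per kilobase of Gapdh and Ldha, and the order of the genes, depend on that choice. Per kilobase of exon, the mean level was 1020 ± 93.4 CPM per kb for Pgk2 (SD, n = 3), 941 ± 69 for Gk2, 756 ± 63.9 for Ldhc, 381 ± 39.7 for Gapdhs and 177 ± 9.37 for Pdha2. Among the paralogs, Ldha was at 256 ± 12.7 CPM per kb and Gapdh at 55 ± 12.2, whereas the X-linked Pdha1 and Pgk1 were at 6.64 and 6.54. In Dmrt1-/- gonads the order was turned over, with Gapdh at 266, Ldha at 34.4, Pdha1 at 27.6 and Pgk1 at 27.4 CPM per kb, and the 5 isozymes between 0.346 for Pdha2 and 1.69 for Ldhc. In Dmrt1 R111G/+ testes Gapdh, Gk2 and Ldhc were highest, at 138, 123 and 118 CPM per kb, and Gapdhs was lowest at 14.4.

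**Figure D1:**
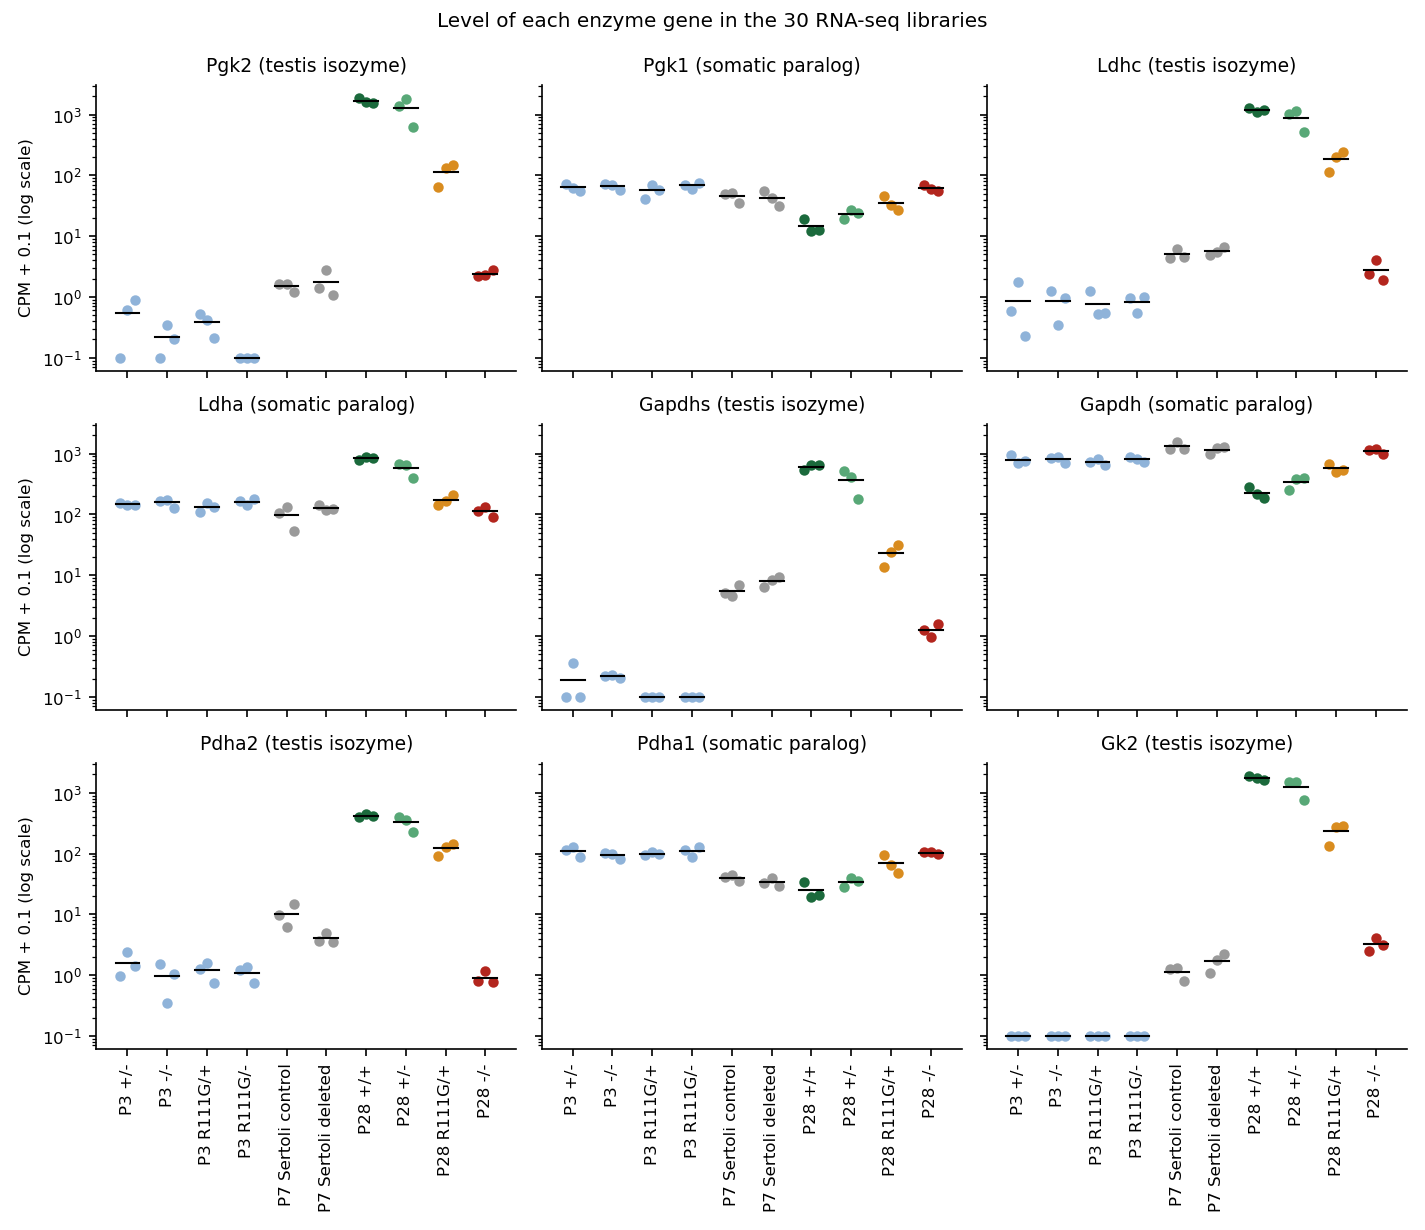
Level of each enzyme gene in the 30 libraries (points, CPM plus 0.1 on a log scale) by group, with the group mean as a line. The 5 isozymes are high at P28 in wild-type and Dmrt1+/- testes, intermediate in Dmrt1 R111G/+ testes and at most 3.93 CPM in Dmrt1-/- gonads, while at P3 Gk2 has no count in any of 12 libraries.

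The first comparison asked what the loss of Dmrt1 does to these transcripts at P28. Pgk2 encodes the germ cell phosphoglycerate kinase, which makes ATP in the later part of glycolysis. It was at 1840, 1610 and 1550 CPM in the wild-type testes and at 2.08, 2.23 and 2.65 CPM in the Dmrt1-/- gonads. Every null library was under every wild-type library, as was so for 47.9% of all genes. The fitted level fell to 0.144% of wild type, a log2 fold change of -9.44 (SE 0.508, adjusted p = 6.35e-09 by edgeR's quasi-likelihood test, as for all adjusted p-values of genes here).

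Gk2, a testis glycerol kinase that phosphorylates glycerol for entry into glycolysis and lipid synthesis, had CPM of 1910, 1750 and 1650 in wild-type testes and of 2.43, 3.93 and 2.99 in Dmrt1-/- gonads. Its groups did not overlap, with a log2 fold change of -9.11 (SE 0.44, adjusted p = 3.41e-09). Ldhc, the lactate dehydrogenase subunit of spermatocytes, spermatids and sperm, stood at 1290, 1090 and 1210 CPM against 2.31, 3.93 and 1.79 CPM. The null libraries were again all lower, by -8.78 on the log2 scale (SE 0.468, adjusted p = 6e-09).

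Gapdhs, the glyceraldehyde phosphate dehydrogenase of the sperm flagellum, was at 540, 646 and 655 CPM in wild-type testes against 1.16, 0.849 and 1.45 CPM in null gonads. Pdha2, the germ cell E1 alpha subunit of pyruvate dehydrogenase, was at 399, 441 and 410 CPM against 0.694, 1.06 and 0.683 CPM. Neither gene's groups overlapped, and the log2 fold changes were -8.99 (SE 0.5, adjusted p = 7.39e-09) and -8.96 (SE 0.33, adjusted p = 8.17e-10). All 5 isozymes thus passed the test (adjusted p under 0.05 and a fold over 2), in a comparison in which 66.6% of all 20952 genes tested passed it and 40.5% passed it as lower. Fitted levels in the null gonads were 0.144% to 0.227% of wild type, beside a median log2 fold change over all genes of -0.31.

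Of the somatic paralogs, Ldha, the lactate dehydrogenase subunit that favours lactate formation, fell with the isozymes, though less far. Wild-type testes had 801, 883 and 857 CPM and Dmrt1-/- gonads 116, 135 and 89.8 CPM, a log2 fold change of -2.87 (SE 0.237, adjusted p = 1.39e-07). Pgk1 was at 19.4, 12 and 12.6 CPM in wild type against 69.4, 59.8 and 55.3 CPM in null gonads. Gapdh was at 283, 214 and 185 CPM against 1140, 1180 and 973 CPM, and Pdha1 at 34.3, 19.5 and 20.7 CPM against 105, 104 and 99.3 CPM. With TMM scaling these 3 genes rose by log2 fold changes of 2.09, 2.3 and 2.08 (adjusted p from 6.71e-07 for Gapdh to 9.42e-06 for Pdha1), whereas scaling on the summed counts of macrophage, endothelial, peritubular myoid and stromal markers gave -0.24, -0.05 and -0.25 for Pgk1, Gapdh and Pdha1, with none passing the test. With TMM factors 26.1% of all genes passed as higher.

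These values were sensitive to scaling, in a comparison where most genes were called. The median of all genes moved from -0.31 to -2.7 with the somatic markers as reference, and the share of calls that were higher went from 39.2% to 2.65%. The log2 fold changes of the isozymes became larger under that scaling, reaching -11.83 for Pgk2, and Ldha also stayed lower. The reference lists themselves differed on the TMM scale, with median log2 fold changes of 0.23 for peritubular myoid, 1.7 for macrophage, 3.03 for stromal and 3.39 for endothelial markers, and the summed stromal markers, the most abundant of the 4 lists, went from 577 to 909 CPM to 4850 to 5780 CPM. Which of the scalings gives the amount of RNA per somatic cell was not tested.

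**Figure D2:**
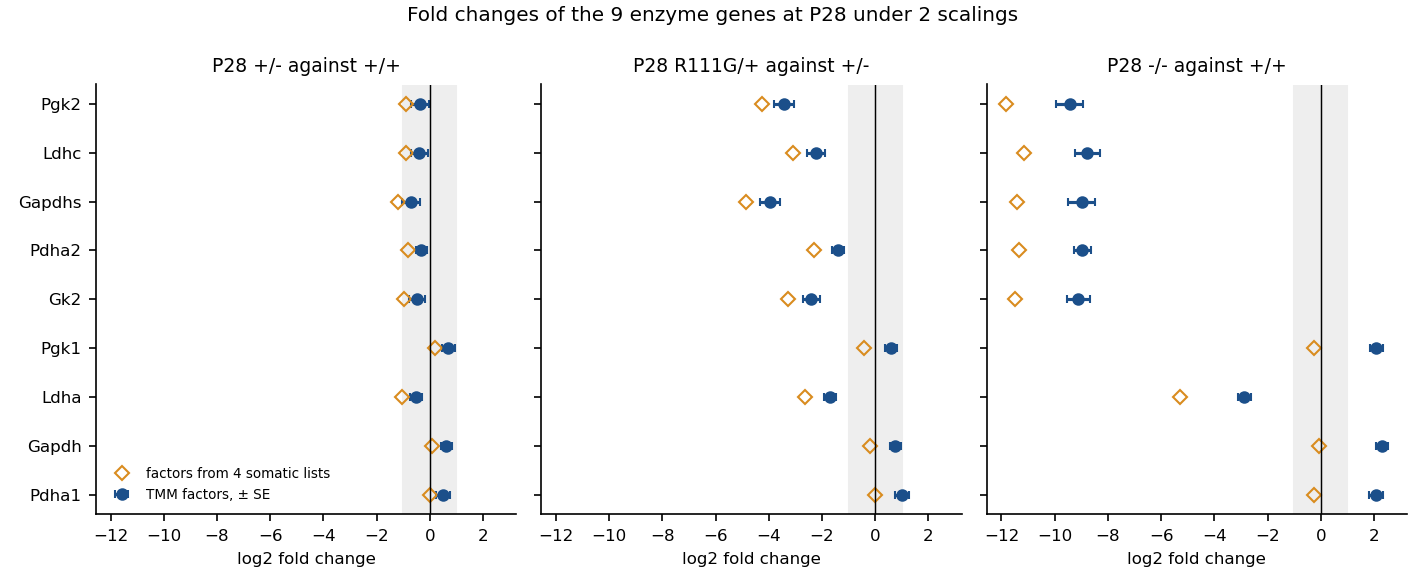
Log2 fold changes of the 9 genes at P28 in 3 comparisons, with TMM factors (filled, ± SE) and with factors from 4 somatic marker lists (open diamonds), and with changes under 2-fold shaded. In Dmrt1-/- against wild type the isozymes lie between -9.44 and -8.78 and Ldha at -2.87 with TMM factors and lower still with somatic factors, whereas Pgk1, Gapdh and Pdha1 lie between 2.08 and 2.3 with TMM factors and between -0.25 and -0.05 with somatic factors.

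Markers of spermatocytes and spermatids were lower together with the isozymes. The summed level of the 15 spermatid markers was 22200, 19200 and 19200 CPM in wild-type testes and 36.5, 36 and 31.2 CPM in Dmrt1-/- gonads, and that of the 15 spermatocyte markers went from 3080 to 3370 CPM to 30.7 to 43.5 CPM. All 15 spermatid and all 15 spermatocyte markers passed the test as lower, with medians of -9.19 and -7.53 on the log2 scale. No marker of either list was at 0 in all 3 null libraries. Earlier germ cells moved less far, with 8 of 11 markers of undifferentiated spermatogonia lower at a median of -2.76 and 7 of 8 of differentiating spermatogonia lower at -6.97. Granulosa markers went from 211 to 269 CPM in wild type to 2460 to 3200 CPM in null gonads, with 12 of 14 called higher. The summed Leydig markers went from 1150 to 2780 CPM to 10600 to 12500 CPM on the TMM scale, although of the 8 genes 3 were called higher and 2 lower (median 0.5, or -1.79 with somatic factors). In whole gonads, fewer cells of a type and less RNA per cell cannot be told apart, and this holds for every gonad result here.

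**Figure D3:**
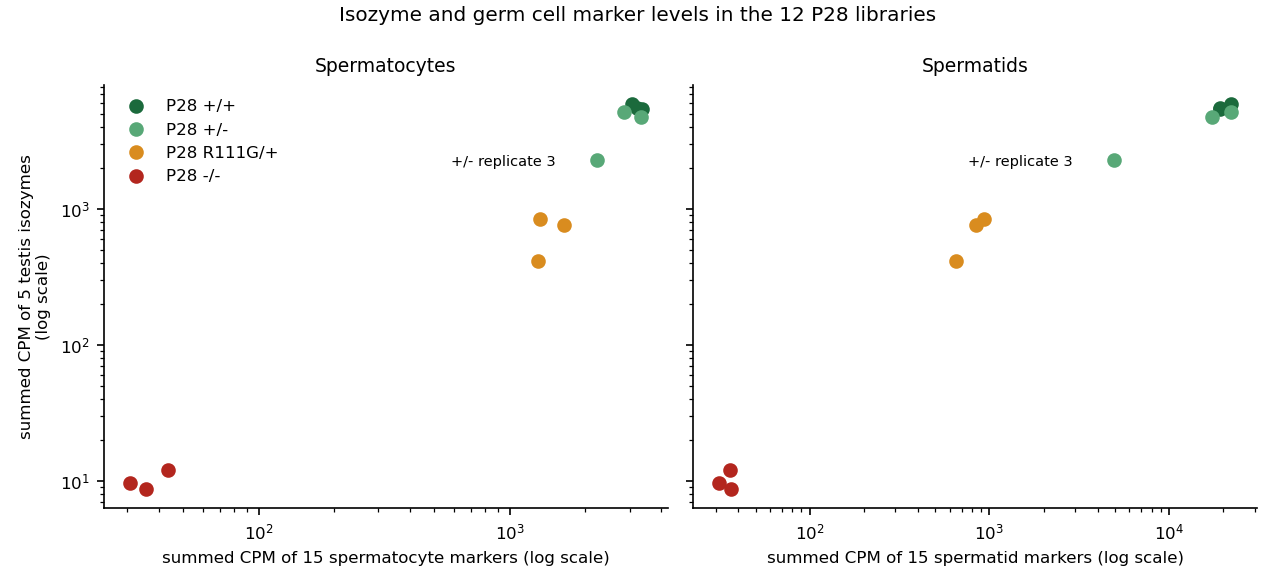
Summed level of the 5 isozymes (y axis, CPM, log scale) against that of 15 spermatocyte markers (left) and 15 spermatid markers (right; x axes, CPM, log scale) in the 12 libraries of P28, colored by genotype. Wild-type testes sit at 5470 to 5970 CPM of isozyme transcript and Dmrt1-/- gonads at 8.67 to 12 CPM, and Dmrt1+/- replicate 3 lies at 2310 CPM.

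Ratios of isozyme to paralog within a library do not depend on the scaling factor, but their position relative to 0 depends on the exon lengths used. For Gapdhs and Gapdh these were 1610 and 4133 bases, beside mRNAs of 1368 and 1420 bases. Differences between groups do not depend on the lengths. The repeated stretches of Pgk1 and Gapdh leave the ratios to these genes uncertain. Per kilobase, the mean log2 ratio of Pgk2 to Pgk1 was 7.32 (SD 0.26, n = 3) in wild-type testes and -4.23 (SD 0.33) in Dmrt1-/- gonads, a difference of -11.55. The difference was -11.31 for Gapdhs to Gapdh, -11.04 for Pdha2 to Pdha1 and -5.93 for Ldhc to Ldha. For each of the 4 pairs the groups did not overlap and the two-sided exact permutation p was 0.1, the smallest that 3 against 3 libraries can give (0.153 after Benjamini-Hochberg adjustment over 52 ratio tests). These differences depend on the prior count added to near-absent isozymes, and with a prior count of 5 that of Pdha2 to Pdha1 was -10.38. In the lactate dehydrogenase pair, which had the smallest shift, Ldha was lower as well.

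**Figure D4:**
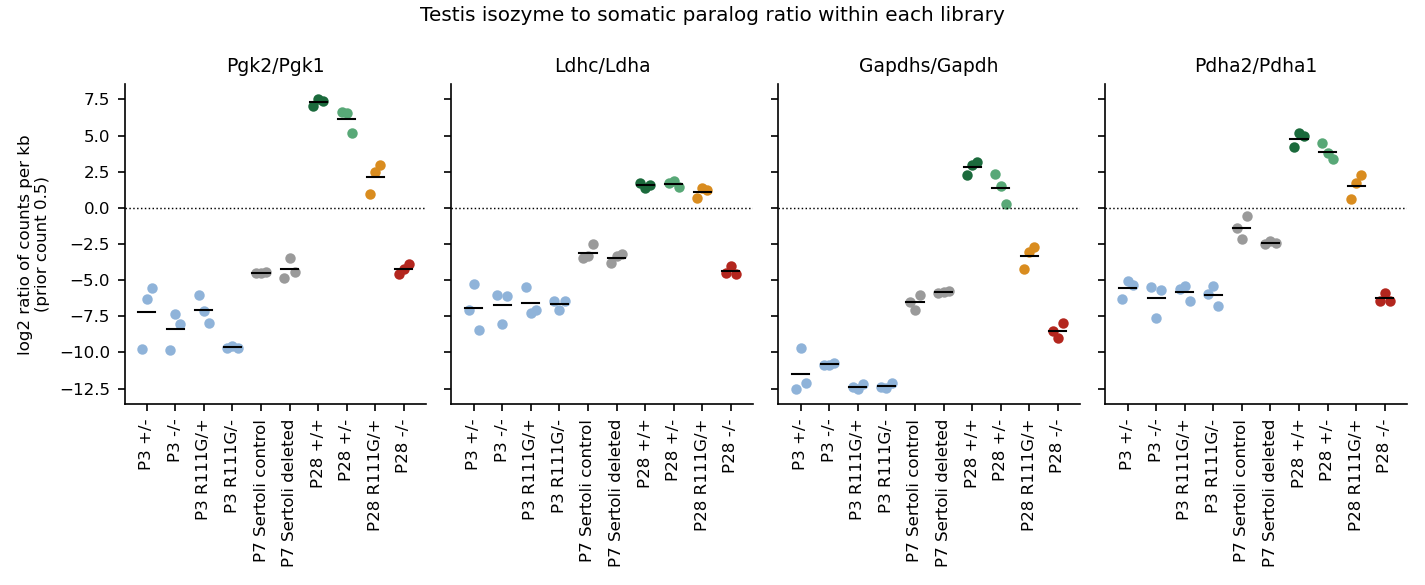
Log2 ratio of each isozyme to its somatic paralog, per kilobase, within each of 30 libraries (points), with group means as lines and the dotted line at equal levels. With the exon lengths used, P28 wild-type and Dmrt1+/- means lie above 0 for all 4 pairs and Dmrt1-/- means between -8.5 and -4.23. In Dmrt1 R111G/+ testes Gapdhs to Gapdh is at -3.33 while the other 3 means are above 0. The position relative to 0 depends on those lengths.

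Dmrt1+/- testes gave a further reference for the null. Against them the null log2 fold changes were -9.08 for Pgk2, -8.39 for Ldhc, -8.28 for Gapdhs, -8.63 for Pdha2 and -8.64 for Gk2, and without replicate 3 of Dmrt1+/- they were -9.38, -8.64, -8.58, -8.81 and -8.87. All 9 genes passed the test in either case, where 58.5% of all genes did with the 3 libraries. Ldha was at -2.35 (-2.53 without replicate 3), and Pgk1, Gapdh and Pdha1 were at 1.4, 1.68 and 1.58 with TMM factors but at -0.45, -0.15 and -0.27 with the somatic markers as reference. Both null comparisons share the null libraries.

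Whether 1 lost copy of Dmrt1 changes these transcripts was asked by comparing Dmrt1+/- with wild-type testes. Pgk2 was at 1370, 1830 and 635 CPM in Dmrt1+/- replicates 1 to 3, Ldhc at 1040, 1130 and 512 CPM and Gk2 at 1480, 1510 and 751 CPM. The first 2 replicates lay near the wild-type values, and replicate 3 had 39.4% to 59.9% of their mean for each of the 5 isozymes. None of the 9 genes passed the test, as none of the 20952 tested did (0%), with log2 fold changes from -0.71 for Gapdhs to 0.69 for Pgk1 and adjusted p from 0.215 to 0.534. At an unadjusted p under 0.05 stood Pgk1, Ldha and Gapdh, and 3769 genes in all, and DESeq2 called 29 genes but none of the 9. Gapdhs, Pdha2, Gk2 and Ldha were lower in all 3 Dmrt1+/- libraries than in any wild-type library, as were 14.9% of all genes. Without replicate 3, the values of the isozymes lay between -0.39 and -0.05.

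Dmrt1 R111G/+ testes carry 1 intact copy of Dmrt1 and 1 that encodes the substitution, and were compared with Dmrt1+/- testes. The isozymes were lower, to differing degrees. Gapdhs fell furthest, at 13.7, 24 and 31.9 CPM against 511, 413 and 182 CPM in Dmrt1+/- testes, a log2 fold change of -3.96 (SE 0.375, adjusted p = 2.36e-05) and 6.43% of the heterozygote. Pgk2 was at 64.9, 134 and 148 CPM, which is 9.21% of the heterozygote (-3.44, SE 0.375, adjusted p = 2.94e-05). For both genes every R111G/+ library was under every Dmrt1+/- library, replicate 3 included.

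Gk2 and Ldhc kept more of their transcript. Gk2 stood at 134, 271 and 286 CPM, or 18.8% of the heterozygote (-2.41, SE 0.316, adjusted p = 7.63e-05), and Ldhc at 113, 204 and 242 CPM against 1040, 1130 and 512 CPM, or 21.3% (-2.23, SE 0.337, adjusted p = 0.000185). Pdha2 was least reduced, at 92.4, 129 and 143 CPM against 396, 358 and 226 CPM, 37.9% of the heterozygote (-1.4, SE 0.217, adjusted p = 0.000219). The groups of these 3 genes did not overlap either, and 37.3% of all genes were without overlap as lower. Replicate 1 of R111G/+ was the lowest of the 3 for each isozyme, at 46% to 67.9% of the mean of the other 2. The order of the 5 fold changes is a description, since the differences between genes were not tested.

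Beside the 5 isozymes, Ldha was lower at 145, 167 and 212 CPM against 674, 662 and 403 CPM (-1.71, SE 0.227, adjusted p = 8.15e-05). Pdha1, at 96, 63.5 and 48.1 CPM against 28.2, 40.2 and 34.9 CPM, was called higher with TMM factors (1.02, SE 0.261, adjusted p = 0.00565) but was at -0.02 with the somatic markers as reference. That call was lost without Dmrt1+/- replicate 1 (0.89) or R111G/+ replicate 1 (0.87). Gapdh had a log2 fold change of 0.76 (-0.21 with somatic factors) and Pgk1 of 0.59 (-0.43), and neither passed the test. In all, 7 of the 9 genes passed, where 34.8% of all genes did, 28.1% as lower and 6.72% as higher. Without Dmrt1+/- replicate 3, the isozymes were at -3.76 for Pgk2, -2.51 for Ldhc, -4.28 for Gapdhs, -1.61 for Pdha2 and -2.67 for Gk2, and the same 7 genes passed.

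Germ cell markers differed by stage in Dmrt1 R111G/+ testes. Summed spermatid markers were at 655, 847 and 936 CPM against 17400, 22100 and 4920 CPM in Dmrt1+/- testes, and all 15 passed the test as lower, with a median of -3.76. Summed spermatocyte markers were at 1300, 1650 and 1320 CPM against 3340, 2840 and 2230 CPM, and 5 of 15 passed, with a median of -0.91 (14 of 15 and -1.89 with somatic factors). Of the spermatogonia markers, 1 of 11 undifferentiated (median -0.08) and 1 of 8 differentiating ones (median -0.24) passed as lower, or 4 and 6 with somatic factors. Over all genes, 28.1% passed as lower with TMM factors. With somatic factors 10760 of 20952 did, with a median of -1.14, so the marker counts under that scaling stand beside a high share. With TMM factors Ldhc, Pdha2 and Gk2 lay between the spermatid and spermatocyte medians. Pgk2, at -3.44, and Gapdhs, at -3.96 (SE 0.375 each), lay to either side of the spermatid median, and these differences were not tested. On the TMM scale Leydig markers were at 3810 to 7800 CPM against 1780 to 3220 CPM, with 4 of 8 called higher. Macrophage markers were at 906 to 2300 CPM against 384 to 613 CPM, with 10 of 10 called higher. None of either list was called with somatic factors. The macrophage list is 1 of the 4 behind those factors, which draws its own change towards 0, so its lack of calls there is no separate result. The part of cell composition in the isozyme values was not tested.

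Set against the other reference groups, the R111G/+ levels were intermediate. Against wild type the log2 fold changes were -3.8 for Pgk2, -2.63 for Ldhc, -4.67 for Gapdhs, -1.73 for Pdha2 and -2.89 for Gk2, and all 9 genes passed (52.2% of all genes did), with Pgk1 at 1.28, Gapdh at 1.38 and Pdha1 at 1.52 under TMM factors and at -0.22, -0.1 and 0 under somatic factors. Against Dmrt1-/- gonads the 5 isozymes were higher, by 5.64 for Pgk2, 6.15 for Ldhc, 4.32 for Gapdhs, 7.23 for Pdha2 and 6.23 for Gk2 (37.7% of all genes passed, 27.6% as higher). None of the 4 paralogs passed there with TMM factors, and Ldha was at 0.64 (adjusted p = 0.0275) with a fold under 2, but passed at 1.6 (adjusted p = 0.00651) with somatic factors.

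P3 gonads, taken before meiosis begins in the testis, held next to none of the isozyme transcripts. Gk2 had no count in any of 12 libraries, Gapdhs reached at most 0.259 CPM, Pgk2 0.79, Ldhc 1.68 and Pdha2 2.33. Pdha2 was the 1 isozyme with enough counts to be tested, at 0.849, 2.33 and 1.32 CPM in Dmrt1+/-, 1.41, 0.249 and 0.961 in Dmrt1-/-, 1.15, 1.49 and 0.655 in R111G/+ and 1.11, 1.24 and 0.645 in R111G/- gonads. These ranges overlap. Its log2 fold changes against Dmrt1+/- were -0.75, -0.45 and -0.55 (SE 0.558, 0.538 and 0.552). Pgk2 had 10 counts over the Dmrt1+/- libraries and 3 over the null libraries, a ratio of 0.273 with a 95% counting interval of 0.0483 to 1.06. It had no count in R111G/- gonads. With 3 counts over that group as the bound and the 10 Dmrt1+/- counts taken as exact, Pgk2 was at least 3.49-fold lower on pooled counts. The error of the Dmrt1+/- counts and the spread between libraries are not in this bound. The Dmrt1+/- libraries held 0, 4 and 6 counts, so the groups overlapped, and Pgk2 was not tested.

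The somatic paralogs had many more counts at P3, with Gapdh at 659 to 941 CPM, Pdha1 at 82.7 to 127 and Pgk1 at 41.5 to 74.5 CPM over the 12 libraries, and Ldha at group means of 134 to 162 CPM. Their log2 fold changes against Dmrt1+/- lay between -0.21 and 0.15, with SE of 0.135 to 0.172. None of the 5 genes tested passed in any of the 3 comparisons by edgeR or DESeq2, and none had an unadjusted p under 0.05, where 0.511%, 0.133% and 0.196% of all genes passed for Dmrt1-/-, R111G/+ and R111G/-. A difference of these genes by genotype was therefore not detectable at P3 within these errors.

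Libraries of isolated P7 Sertoli cells held low levels of the isozymes, with summed levels of 16.9 to 27.9 CPM, above the 8.67 to 12 CPM of the Dmrt1-/- gonads at P28. Summed spermatid markers, at 135 to 195 CPM in deleted and 137 to 141 CPM in control cells, were also above the 31.2 to 36.5 CPM of those gonads. In P3 gonads the sums were 0.872 to 4.78 CPM for the isozymes and 1.58 to 3.85 CPM for the spermatid markers. Whether some of the P7 reads came from other cells or other libraries was not tested. Sertoli markers were at 3530 to 4890 CPM in deleted and 5280 to 6310 CPM in control cells. Dmrt1 was at 200 ± 50.3 CPM (SD, n = 3) in control and 27.5 ± 8.16 CPM in deleted cells.

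Pdha2 was at 3.5, 4.92 and 3.34 CPM in deleted and 9.54, 6.06 and 14.8 CPM in control cells. The groups did not overlap, as was so for 13.3% of all genes in that direction. The log2 fold change of -1.38 (SE 0.398) did not pass, with an adjusted p of 0.0827. It passed without the filter on low counts (-1.4, adjusted p = 0.0126), with DESeq2 (-1.38, adjusted p = 0.0255) and without control replicate 2 (-1.66, adjusted p = 0.0308). Control replicate 2, at 6.06 CPM, was the lowest control library. Pdha2 did not pass with the other scalings, with the replicate block or without any other library. Markers of differentiating spermatogonia were at 36.9 to 58 CPM in deleted and 75.9 to 116 CPM in control cells, with 3 of 7 called lower (median -1.27), and those of undifferentiated spermatogonia at 152 to 256 and 274 to 486 CPM, with 0 of 12 called (median -0.86). These levels are those left after the Thy1 and c-Kit bead step, and their part in the Pdha2 value was not tested. The other 6 genes tested lay between -0.26 for Pdha1 and 0.53 for Gapdhs and overlapped. None of the 7 passed, against 4.56% of all genes, and Pgk2 and Gk2, at no more than 2.65 and 2.16 CPM, had too few counts to be tested.

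From P3 to P28 the isozymes rose by orders of magnitude in Dmrt1+/- gonads. The log2 fold change was 11.51 for Pgk2 (SE 0.564), 10.17 for Ldhc (SE 0.517) and 7.77 for Pdha2 (SE 0.339), and 11.81, 10.43 and 7.96 without P28 Dmrt1+/- replicate 3. Gapdhs went from 2 to 11156 counts over the 3 libraries, a ratio of 4270 with a 95% counting interval of 1180 to 35300, and Gk2 from no count to a level at least 9610-fold higher, with the bound set at 3 counts for the P3 group. Ldha rose by 1.99 on the log2 scale. Pgk1, Gapdh and Pdha1 were lower, at -1.44, -1.22 and -1.66 with TMM factors, but higher, at 0.84, 1.04 and 0.64, with the somatic markers as reference. All 9 genes passed the test, as did 55.5% of all genes.

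Dmrt1-/- gonads showed little of this rise. Pgk2 went from 0.119 to 2.32 CPM on average (ratio of counts 20.3, counting interval 6.67 to 101), Gapdhs from 0.116 to 1.15 CPM, Ldhc from 0.759 to 2.68 CPM (log2 fold change 1.74, adjusted p = 0.0257) and Gk2 from no count to a level at least 27-fold higher. These 4 genes passed (23.2% of all genes did), whereas Pdha2, at 0.873 and 0.813 CPM, and the 4 paralogs did not. The calls rest on few P28 counts over the null group: 70 for Pgk2, 78 for Ldhc, 35 for Gapdhs and 93 for Gk2. The paper states that libraries were pooled for sequencing, and whether some of these reads belong to other libraries was not tested. The same holds for the other low counts in null gonads. The Ldhc call was lost without P28 replicate 2 (adjusted p = 0.124), P3 replicate 2 (0.103) or P3 replicate 3 (0.0551), and the Gapdhs call without P28 replicate 3 (adjusted p = 0.0513). In R111G/+ gonads Pgk2, Ldhc and Pdha2 rose by 8.62, 8.1 and 6.78 on the log2 scale, Gapdhs at least 224-fold and Gk2 at least 2240-fold, and no paralog passed with TMM factors (41.7% of all genes did), although Ldha did with somatic factors (1.81, adjusted p = 8.18e-05). These age comparisons share the P28 and P3 libraries of the genotype comparisons.

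The difference between the genotype effects at P28 and P3 was tested as an interaction in the 24 gonad libraries. For Dmrt1-/- against Dmrt1+/-, 8 of the 9 genes passed, where 41.7% of all genes did, and for R111G/+ against Dmrt1+/-, Ldha and Pdha1 passed, where 14.6% of all genes did. Without P28 Dmrt1+/- replicate 3, Pgk2 (-3.22, adjusted p = 0.0319), Ldhc (-2.35, 0.0331) and Gapdh (1, 0.00712) passed as well in the latter. Gk2, without a count at P3, had an adjusted p of 1 by edgeR in both, whereas DESeq2 called it in the former (-8.67, adjusted p = 2.94e-06).

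Other metabolic genes were compared in the same way, and those named were picked by adjusted p in Dmrt1-/- against wild type. The list of other testis paralogs of metabolic enzymes held 15 genes, of which Mpc1l was not in the table and Slc25a31 was listed at 0 throughout. All 13 tested were lower in Dmrt1-/- gonads than in wild-type testes, with a median of -8.86. Among them were Tktl2, a transketolase-like gene (-9.25, SE 0.279, adjusted p = 2.82e-10), Cox8c, a cytochrome c oxidase subunit (-9.34), Gykl1, a glycerol kinase-like gene (-8.99), and Ldhal6b, a lactate dehydrogenase-like gene (-8.73). In R111G/+ against Dmrt1+/- testes 12 of the 13 were lower, with a median of -2.04: Gykl1 was at -2.82, Ldhal6b at -2.04 and Cox8c at -1.61, and Tktl2, at -0.99, had a fold just under 2.

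Genes of the widely used pathways were mixed. Of 16 genes of somatic glycolysis, 7 were called higher and 2 lower in Dmrt1-/- gonads with TMM factors (median 0.61), but 0 higher and 11 lower with the somatic markers as reference (median -1.78). Over all genes 26.1% were called higher and 40.5% lower with TMM factors, and 448 higher and 16427 lower of 20952, with a median of -2.7, with somatic factors. The 2 glycolysis genes lower with TMM factors were Hk1, a hexokinase (-3.33, SE 0.251, adjusted p = 5.97e-08), and Pfkp, a phosphofructokinase (-2.83, adjusted p = 4.36e-05). Pgam1, a phosphoglycerate mutase, was at 1.67 with TMM factors and -0.65 with somatic factors, and Pfkl, another phosphofructokinase, at 1.29 and -1.11. Hk1 was also lower in R111G/+ testes than in Dmrt1+/- testes (-2.68, adjusted p = 2.36e-05), as was Pfkp (-1.04, adjusted p = 0.0467).

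Around the pyruvate dehydrogenase complex, 2 of 14 genes were called higher and 4 lower with TMM factors, 0 and 12 with somatic factors, shares no higher than over all genes apart from the lower calls with somatic factors. Mpc2, a subunit of the mitochondrial pyruvate carrier, was at -3.04, Pdk2, a kinase that inhibits the complex, at -1.66, and Pdhb, its E1 beta subunit, at -1.3, while Pdp2, a phosphatase that activates it, was at 1.56 with TMM and -0.81 with somatic factors. Ldhb, the heart-type lactate dehydrogenase subunit, was at 1.3 and -1.06 in the same order, and Ldhd, at 0.44, did not pass with TMM factors. Of 5 genes of glycerol metabolism, Gpd2, the mitochondrial glycerol phosphate dehydrogenase, was lower at -2.62 (adjusted p = 2.59e-06), and 4 were called higher with TMM factors but none with somatic factors. Those 4 included the cytosolic Gpd1 (1.97 with TMM, -0.41 with somatic factors), Gpd1l (1.58 and -0.76) and Gk5 (1.05 and -1.35).

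Of 8 genes of glucose and lactate transport, Slc2a3, a high-affinity glucose transporter, was at -6.03 (SE 0.424, adjusted p = 3.42e-08) in Dmrt1-/- gonads. Slc16a7, a monocarboxylate transporter, was at -5.79 (SE 0.337, adjusted p = 9.28e-09) and Emb, which accompanies such transporters, at -1.5 (SE 0.202, adjusted p = 1.26e-05). Slc16a1, another of the family, was at 1.62 with TMM and -0.75 with somatic factors. In R111G/+ against Dmrt1+/- testes Slc16a7 was at -3.01, Gpd2 at -2.95, Mpc2 at -1.5 and Slc2a3 at -1.29, all called, while Emb, at 0.65, was not.

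**Figure D5:**
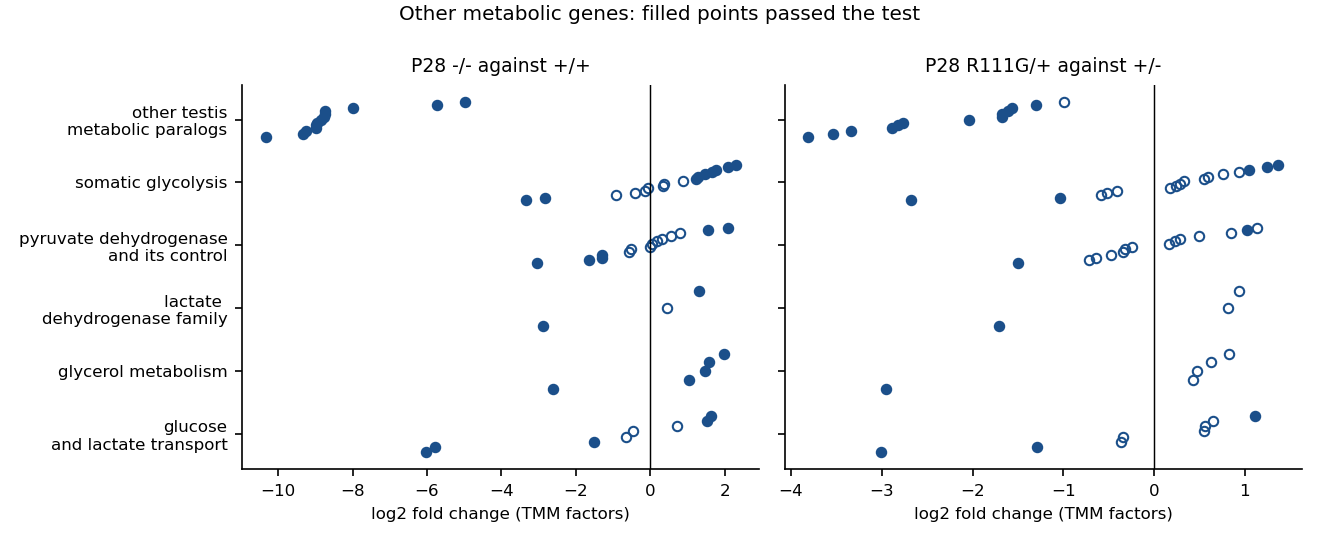
Log2 fold changes with TMM factors of the genes of 6 metabolic lists (points) in Dmrt1-/- against wild-type and in R111G/+ against Dmrt1+/- P28 gonads, with filled points for genes that passed the test. All 13 tested testis paralogs lie at -4.98 or lower in the null, whereas the other lists spread around 0, and with somatic factors none of the points above 0 in the null was called higher.

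Over the 30 libraries the isozymes had close patterns. Pearson's r of log2 CPM between Pgk2 and the others was 0.99 with Gk2, 0.979 with Ldhc, 0.955 with Pdha2 and 0.952 with Gapdhs, and r between Pgk2 and the paralogs was 0.814 for Ldha, -0.895 for Pgk1, -0.807 for Gapdh and -0.692 for Pdha1. Among 14422 genes, the pattern most like that of Pgk2 was that of Gykl1 (0.9918). Most alike were Fabp9 for Ldhc (0.9938), Cby2 for Gapdhs (0.9965), Dkkl1 for Pdha2 (0.9833) and Pabpc2 for Gk2 (0.9982). For the paralogs they were Rpl10 for Pgk1 (0.9786), Ipo5 for Ldha (0.9722), Slc39a9 for Gapdh (0.9775) and P4hb for Pdha1 (0.9815). These values describe 30 libraries that share 10 groups and 3 ages, and they carry no test.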

How the data were processed

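Stranded mRNA-seq reads were trimmed by the authors with Trim Galore 0.6.0 and cutadapt 1.18, mapped to GRCm38 with STAR 2.7.2a and counted by strand per GENCODE M25 gene. The deposited table holds raw counts. Exon lengths and positions came from GENCODE M21 (99.5% of identifiers matched), and promoters from RefSeq (GRCm38.p6).

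Tests were run on the counts with edgeR 4.0.16 in R 4.3.3 (filterByExpr, TMM, quasi-likelihood F test), 1 fit each for P28, P7, P3 and all 24 gonad libraries. Calls required a fold over 2 and a Benjamini-Hochberg adjusted p under 0.05 over all genes tested. Standard errors were calculated back from the F value and are unreliable near 0 counts. Ratios used a prior count of 0.5 and exact permutation tests. The test was tested on simulated data. Alternatives were DESeq2 1.42.0, other scalings, no filter, a replicate block and leaving out each library. No 2 replicates were alike within sampling noise.

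The named genes are the 9 members, up to 4 genes per metabolic list by adjusted p (mean of at least 1 CPM) and the 3 genes most like each member, not all of which are reported here. Members and lists were chosen with earlier results of these data known. The ChIP-seq samples were not analysed here.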

Additional observations from a re-analysis of the deposited data

Results flagged for a closer look

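The effect of genotype differed between P28 and P3 gonads for 8 of the 9 genes in Dmrt1-/- against Dmrt1+/-, by edgeR's quasi-likelihood test of the difference itself. The log2 fold change at P28 minus that at P3 was -7.35 for Pgk2 (SE 2.43, adjusted p = 0.0156), -8.43 for Ldhc (SE 1.05, adjusted p = 9.06e-07), -8.7 for Gapdhs (SE 2.53, adjusted p = 0.00754) and -7.92 for Pdha2 (SE 0.725, adjusted p = 1.5e-08). Pgk2 and Gapdhs had at most 10 counts over any P3 group of this contrast, and the Pgk2 call was lost without P3 Dmrt1-/- replicate 2 (adjusted p = 0.197). Without P28 Dmrt1+/- replicate 3 the 4 values were -7.64, -8.68, -9 and -8.1. For Ldha the difference was -2.48 (SE 0.273, adjusted p = 1.8e-07). For Pgk1, Gapdh and Pdha1 it was 1.3, 1.62 and 1.76 (adjusted p = 0.00102, 1.69e-05 and 7.7e-05) with TMM factors, but -0.61, -0.26 and -0.18, with none passing, with the somatic markers as reference.

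In R111G/+ against Dmrt1+/- the difference between the ages was -1.59 for Ldha (SE 0.271, adjusted p = 0.000399). It was 0.88 for Gapdh (SE 0.253, adjusted p = 0.0166, fold under 2) and 1.14 for Pdha1 (SE 0.315, adjusted p = 0.0126) with TMM factors, but -0.05 and 0.1 with the somatic markers as reference. The isozyme differences were -2.9 for Pgk2, -2.07 for Ldhc, -1.1 for Gapdhs and -0.99 for Pdha2 and did not pass (adjusted p of 0.0927 to 0.898), on P3 counts near 0. Pgk2 and Ldhc passed without a filter on low counts (adjusted p = 0.00379 and 0.00271), by DESeq2 (0.00424 and 0.0455), without P28 Dmrt1+/- replicate 3 (0.0319 and 0.0331) and, together with Pdha2, with somatic factors (-3.73, -2.99 and -1.94). Ldhc also passed without P3 Dmrt1+/- replicate 2 (-3.32, adjusted p = 0.0234). Without P28 Dmrt1+/- replicate 3 Gapdh passed too (1, adjusted p = 0.00712).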

How the results depend on the processing

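The isozyme calls at P28 held in all 13 alternatives of each comparison in which they were called, and in Dmrt1-/- against wild type the values ranged from -11.83 to -8.47. The other choices touched mainly the paralogs. With factors from 4 somatic lists, 6 genes were called in each of Dmrt1-/- against wild type, Dmrt1-/- against Dmrt1+/-, R111G/+ against Dmrt1+/- and R111G/+ against wild type, 7 in Dmrt1+/- by age, and 5 and 4 in the null and R111G interactions. Over all genes, 16875, 16180, 10818 and 13676 of 20952 were called in the 4 P28 comparisons in that order. In Dmrt1+/- by age and the 2 interactions 18218, 13484 and 5442 of 21377 were. With those factors the sign turned for Pgk1, Gapdh and Pdha1 in Dmrt1-/- against wild type (-0.24, -0.05, -0.25), Dmrt1-/- against Dmrt1+/- (-0.45, -0.15, -0.27), R111G/+ against Dmrt1+/- (-0.43, -0.21, -0.02) and R111G/+ against wild type (-0.22, -0.1, 0). By age it turned in Dmrt1+/- (0.84, 1.04, 0.64) and R111G/+ gonads (0.58, 0.99, 0.74) and in the null interaction (-0.61, -0.26, -0.18), for Pgk1 and Gapdh in the R111G interaction (-0.26, -0.05), for Pgk1 and Pdha1 in R111G/+ against Dmrt1-/- (0.02, 0.25), and for Pdha2 and Pgk1 in Dmrt1-/- by age (0.18, 0.24). In R111G/+ against Dmrt1+/-, 6 genes were called with DESeq2 size factors and 8 with library size alone, where 7326 and 7820 of 20952 genes were. With a replicate block 6 genes were called. Its numbers did not pair the libraries at P28 (correlations -0.394 to 0.355) or P3 (-0.287 to 0.241). At P7 the 3 correlations were -0.0371 to 0.505, with 2 over 0.1, and whether the numbers pair those libraries was not tested. The replicate block changed no other member count. At P7, 1 gene was called without a filter and 1 by DESeq2, where 1356 and 963 of all genes were. In the R111G interaction 4 genes were called with library size alone (3721 of all genes), without a filter and by DESeq2. Leaving out 1 library gave 6 to 7 genes in R111G/+ against Dmrt1+/-, 0 to 1 at P7, 3 to 4 in Dmrt1-/- by age, 7 to 8 in the null and 1 to 5 in the R111G interaction. Leaving out 1 library moved Pdha2 between -0.54 and 0.34 (without P3 replicate 1) in Dmrt1-/- by age and between -0.74 and 0.02 (without Dmrt1+/- replicate 2) in P3 R111G/+ against Dmrt1+/-. At P3 and P7, 18 of 222 alternative values of genes near no change turned sign, with no call changed. Counts over all genes moved most in Dmrt1+/- against wild type (0, against 270 without a filter and 29 by DESeq2), at P7 (639, against 1356 and 963), at P3 (81, 21 and 31, against 312, 189 and 208 without a filter and 127, 80 and 65 by DESeq2), and, with somatic factors, in P3 Dmrt1-/- (42), Dmrt1+/- by age (11861, against 18218), R111G/+ by age (8906, against 15099) and the interactions (8922 and 3122, against 13484 and 5442). Leaving out 1 library moved the count over all genes to 279 (deleted replicate 3), 307 (control replicate 3), 412 (deleted replicate 2), 414 (control replicate 1) or 989 (control replicate 2) at P7, to 36 (null replicate 1), 49 (null replicate 3) or 53 (Dmrt1+/- replicate 3) in P3 Dmrt1-/-, to 8 and 9 (R111G/+ replicates 3 and 1), 11, 12 and 37 (Dmrt1+/- replicates 1, 3 and 2) in P3 R111G/+, to 19 (Dmrt1+/- replicate 3) and 20 (R111G/- replicate 3) in P3 R111G/-, to 3 (Dmrt1+/- replicate 3) in Dmrt1+/- against wild type and to 2044 (P28 Dmrt1+/- replicate 1) in the R111G interaction. A prior count of 5 moved the ratio differences of Pdha2 to Pdha1 in Dmrt1-/- to -10.38 against wild type and -9.5 against Dmrt1+/-, and those of Pgk2 and Gapdhs by age (2.15 and 0.82 in Dmrt1-/-, 7.78 and 5.74 in R111G/+, and 10.13 for Gapdhs in Dmrt1+/-). The cause of these changes was not tested. Depth limits the isozymes at P3, where counts were near 0, and Pgk2 and Gk2 at P7.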

Other observations

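A list of 4291 chromatin interactions called from Hi-C of P7 Sertoli cells without Dmrt1 has 10 kb anchors without a score. No anchor lay in any of the 9 genes. Within 10 kb of the gene, 1 interaction had an anchor for Gapdh and 2 for Pdha1, and none for the 5 isozymes. With a list from 1 genotype there is no comparison.

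The other genes closest in pattern to the isozymes over the 30 libraries were Kif2b and Prps1l1 for Ldhc (r = 0.9937 and 0.9929), H1f7 and Smcp for Gapdhs (0.9946 and 0.994), Hdgfl1 and Lrrc46 for Pdha2 (0.9826 and 0.9813) and Gykl1 and Clec2m for Gk2 (0.9978 and 0.9958). Gykl1 stood among the 3 most alike genes of both Pgk2 and Gk2.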
